A study of Homo sapiens with 4 samples.

Results

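Carbonic anhydrases, bicarbonate and monocarboxylate transporters and the transporter chaperone basigin were followed in SCC-9 cells, an established human cell line derived from a tongue squamous carcinoma. The cells had been given a miR-585-5p mimic or the control small RNA miR-NC. The 9 genes listed were CA2, CA9, CA12, CA13, SLC4A2, SLC4A7, SLC16A1, SLC16A3 and BSG, and their probe sets were those to which the platform annotation gives exactly 1 gene symbol. By this rule 6 of the 9 genes were found, with 20 probe sets, out of 18132 genes and 49293 probe sets that are not controls. No probe set fell under the rule for CA9, SLC16A1 or SLC16A3, which are therefore not analysed here. CA12 was chosen by its large rise in this same contrast, so its values are given as a description, with no test.

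Both groups were the same line grown under the same labelled protocol. Cells were seeded, transfected 24 hours later at 30 nM, the dose the labels give for the mimic, and collected 36 hours after transfection, and 2 ug of total RNA was labelled for a PrimeView human expression array. Each group had 2 arrays. Nothing in the labels places the arrays of 1 group in separate cultures, so errors and p-values reflect only how far these samples differ, possibly for technical reasons. The comparison asks which transcripts differ when miR-585-5p is in excess.

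Carbonic anhydrases interconvert carbon dioxide and water with bicarbonate and a proton. CA2 and CA13 are cytosolic, while CA9 and CA12 sit in the plasma membrane with the active site outside the cell. SLC4 proteins carry bicarbonate across membranes, and the monocarboxylate transporters SLC16A1 (MCT1) and SLC16A3 (MCT4) move lactate together with a proton and need the membrane glycoprotein basigin, encoded by BSG, to reach the cell surface. In solid tumours, glycolytic cells use these proteins to export acid, and CA9 and CA12 are known for induction in hypoxia.

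The transfected RNA is shown first because its seed sets which transcripts a microRNA can pair with. The mature sequence is from RefSeq (GRCh38.p14, chr5:169263649-169263670, minus strand, within the span of the gene SLIT3), with the seed, bases 2 to 8, in capitals.
hsa-miR-585-5p: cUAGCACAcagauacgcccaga
Among 2370 human mature microRNA names in that table, 0 others had this seed. A perfect match to it in a transcript would read TGTGCTA in DNA letters. Transcript sequences were not used here, so matches in the listed genes were not searched.

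Values are deposited intensities, tested on the log2 scale, and changes are mimic minus control. Median intensities were 30.6 to 31.3, arrays of a group correlated at 0.997 to 0.998 across probe sets, and the 3' to 5' signal ratio ran from 1.11 to 1.22 for GAPDH and from 13.8 to 14.4 for ACTB, so the ACTB probe sets read far more signal at the 3' end on all 4 arrays. The part of transcript position in the results was not tested. The poly(A) spikes, foreign RNAs that go through the labelling, were on average 0.35 higher (log2) in the mimic group, and the hybridization spikes differed by -0.05. By array the poly(A) mean was 6.43 and 6.39 with the mimic and 5.97 and 6.15 in the control, so the offset itself varies between arrays. Of the genes tested, 28.1% passed higher and 26.9% lower in the mimic group, where a gene passes at a limma adjusted p under 0.05. Setting the arrays to the poly(A) spikes moved the median gene's log2 change from -0.06 to -0.40 and the share of calls that were higher from 51.1% to 16.4%. That scaling lowers every change alike, by 0.35, and every direction below is relative to the array as a whole. That the cells are epithelial was borne out by 8 of 11 markers listed for squamous epithelium, all 8 above background on 4 arrays. They were KRT5, KRT14, SFN, KRT18, KRT8, DSP, CDH1 and EPCAM. The other 3, KRT6A, KRT17 and TP63, have no probe set used here. Of these 8, 4 were higher and 3 lower with the mimic, among them KRT14 (log2 0.97) and the adhesion protein E-cadherin, CDH1 (-1.26), and their summed intensity was 27784 to 28410 in the mimic group and 26033 to 26670 in the control group. COL3A1, DCN and LUM of the fibroblast markers, PTPRC and LYZ of the immune markers and CDH5 of the endothelial markers were at background on 4 arrays. Above background on 4 arrays were 2 fibroblast markers (PDGFRB and COL1A1), 2 immune markers (CD14 and CSF1R) and 3 endothelial markers (KDR, VWF and PECAM1). The summed intensity over 7 fibroblast markers was 108 to 109 in the mimic group and 110 to 113 in the control group, that over 5 immune markers 129 to 144 and 106 to 113, and that over 4 endothelial markers 104 to 121 and 142 to 152. Of the markers of other cell types, CD14 was higher (log2 0.68) and CSF1R (-0.39), KDR (-0.73) and COL1A1 (-0.47) lower in the mimic group. Their part in the results was not tested.

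The 6 measured genes did not move as a block. The extracellular carbonic anhydrase CA12 was 7.51-fold higher with the mimic and BSG rose 1.27-fold, while the bicarbonate transporters SLC4A7 and SLC4A2 fell 2.71-fold and 1.52-fold, the cytosolic carbonic anhydrase CA13 fell 1.25-fold and CA2 did not pass. These are changes of the brightest probe set of each gene. Of the 5 genes other than CA12, 4 passed, 1 higher and 3 lower, where 55% of the 14122 genes tested passed. The groups did not overlap for these 4 and overlapped for CA2, where 79.4% of all genes tested did not overlap. Both shares are given for scale only, since the list was made with this contrast in view.

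**Figure D1:**
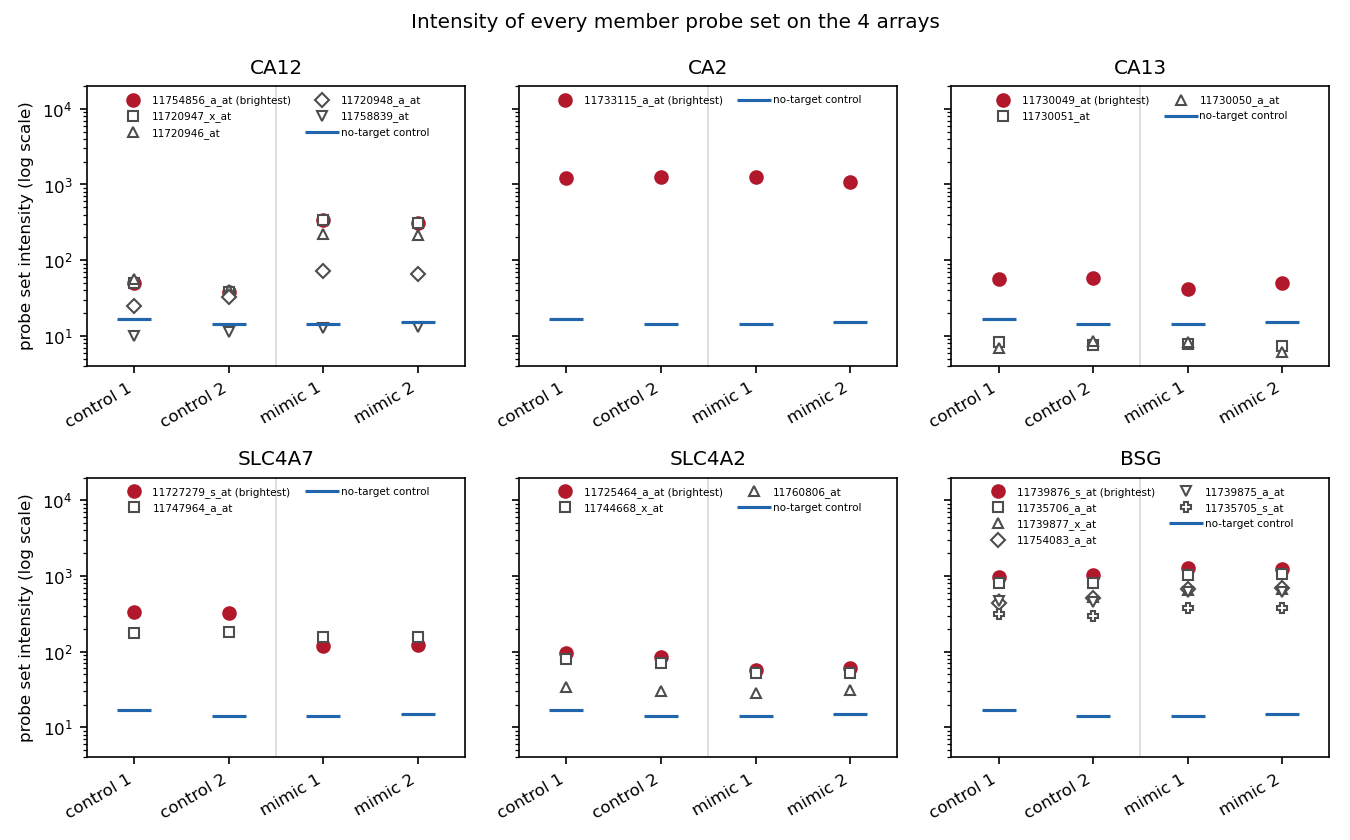
Intensity (log scale) of all 20 member probe sets on each of the 4 arrays, 1 panel per gene. Filled red points are the brightest probe set of the gene, open symbols its other probe sets and blue bars the brightest control probe set with no human target on that array. CA12 separates the groups in the 4 of its 5 probe sets that lie above that level, SLC4A7 separates them widely in 1 of 2, and CA2 not at all.

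CA12 encodes a membrane-bound carbonic anhydrase with an extracellular catalytic domain. Its brightest probe set, 11754856_a_at, read 342 and 311 with the mimic and 49.2 and 38.2 in the control. Every mimic value lay above every control value, and the control arrays differed more from each other, in relative terms, than the mimic arrays did. The log2 change was 2.91 ± 0.12 (SE, n = 2 per group), the 12th highest of 14122 genes tested. A change in how many cells have a transcript and a change in transcript per cell cannot be told apart in RNA from whole cultures. This holds here and for every gene below.

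The CA12 probe sets gave changes of different size in the same direction. The probe set 11720947_x_at read 337, 312, 49.3 and 38.2 on mimic 1, mimic 2, control 1 and control 2, nearly the same values as 11754856_a_at, and changed by 2.90 ± 0.12, so this pair is not counted as separate evidence. The probe set 11720946_at read 223 and 213 with the mimic and 56.1 and 40.8 in the control, a log2 change of 2.19 ± 0.13. The probe set 11720948_a_at read 71.6 and 64.8 against 25.1 and 32.9, a change of 1.24 ± 0.14. In each of them both mimic arrays lay above both control arrays. The remaining one, 11758839_at, stayed between 10.1 and 13.0 on the 4 arrays, not above the control probe sets with no human target, and gives no fold. Averaging the 5 probe sets gave the gene a log2 change of 1.90, and the poly(A) spike scale gave 2.56.

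CA12's pattern over the 4 arrays was nearest to those of KIF14, ERO1A, TOP2A, OLFM1 and TFPI2, in this order. Likeness was the Euclidean distance between log2 values centred on each gene's own mean, and it ran from 0.19 for KIF14 to 0.32 for TFPI2 (log2 units). The place of KIF14 is not settled, since its control values of 13.4 and 12.6 were not above background, and OLFM1 was not above it on control replicate 1. With 4 arrays in 2 groups this measure mostly finds genes with a change of the same size. ERO1A, an oxidase of the endoplasmic reticulum, read 571 and 536 with the mimic and 70.0 and 66.1 in the control. TOP2A, the topoisomerase that decatenates chromosomes, read 2513 and 2793 against 379 and 352. KIF14, a mitotic kinesin, was at background in the control group and at least 6.16-fold higher with the mimic.

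CA2 encodes an abundant cytosolic isoform and has 1 probe set here. It read 1262 and 1068 with the mimic and 1207 and 1254 in the control. One mimic array lay above both control arrays and the other below, so the groups overlap. The log2 change was -0.08 ± 0.07 (SE, n = 2 per group, limma adjusted p = 0.351), with a 95% interval of -0.25 to 0.08. A change as large as that of CA12 lies far outside this interval. On the poly(A) spike scale CA2 passed as lower (-0.43).

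CA13, another cytosolic isoform, read 42.0 and 50.7 with the mimic and 56.3 and 58.9 in the control for the 1 of its 3 probe sets above background. The mimic arrays were both lower, and they differed from each other more than the control arrays did. It fell by 0.32 ± 0.12 on the log2 scale (limma adjusted p = 0.0477, n = 2 per group), close to the threshold. The call was lost with each array left out except control replicate 1: the change was -0.18 without mimic replicate 1, -0.45 without mimic replicate 2 and -0.29 without control replicate 2. It was also lost with a shared median, with the hybridization spikes, with no filter on dim genes and with no mean-variance trend (limma adjusted p = 0.0559 to 0.112), at a threshold of 0.01, and with the mean of all 3 probe sets (-0.17, limma adjusted p = 0.215). The other CA13 probe sets read 6.08 to 8.60, not above background on any array.

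SLC4A7 encodes NBCn1, an electroneutral sodium-bicarbonate cotransporter that brings bicarbonate into the cell. Its brightest probe set, 11727279_s_at, read 117 and 123 with the mimic and 330 and 322 in the control. The groups lay far apart and the arrays of each group close together. The log2 change was -1.44 ± 0.08 (SE, n = 2 per group, limma adjusted p = 1.09e-07), which put SLC4A7 at the 1.08 percentile of changes of all genes tested.

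The other SLC4A7 probe set did not show a fall of that size. The probe set 11747964_a_at read 155 and 156 with the mimic and 176 and 180 in the control, a log2 change of -0.19 ± 0.08 that did not pass among all 34505 probe sets tested (limma adjusted p = 0.0653). Both mimic arrays were still below both control arrays. The suffix of 11727279_s_at marks a set that can match transcripts of several genes, although the annotation gives it 1 symbol. With such sets left out, the gene did not pass (-0.19), and with the mean of both probe sets it was at -0.82 and passed.

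SLC4A2 encodes AE2, an anion exchanger that swaps intracellular bicarbonate for chloride. The brightest probe set, 11725464_a_at, read 58.0 and 60.5 with the mimic and 96.0 and 84.3 in the control, without overlap. It fell by 0.60 ± 0.11 on the log2 scale (limma adjusted p = 6.52e-04, n = 2 per group). A second probe set, 11744668_x_at, read 52.1 and 52.4 against 80.7 and 71.7 and fell by 0.54 ± 0.11. The remaining one, 11760806_at, read 28.4 and 31.2 against 34.0 and 30.3, overlapped between the groups and did not pass at -0.11 ± 0.13 (limma adjusted p = 0.518). SLC4A2 passed as lower in each of the 18 alternative settings tried, with changes from -0.95 to -0.42.

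BSG had the most probe sets, and all 6 rose. The brightest, 11739876_s_at, read 1293 and 1249 with the mimic and 971 and 1031 in the control, a log2 change of 0.34 ± 0.05 (SE) with a limma adjusted p = 2.59e-04 (n = 2 per group). The groups did not overlap in any of the 6 sets. The smallest change was 0.31 ± 0.07 for 11735705_s_at and the largest 0.55 ± 0.07 for 11754083_a_at, which read 683 and 699 against 439 and 508. The change of the brightest set equals the 0.35 offset between scalings: on the poly(A) spike scale BSG, by that set, was at -0.0011 and did not pass. The largest change, 0.55, exceeds that offset.

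**Figure D2:**
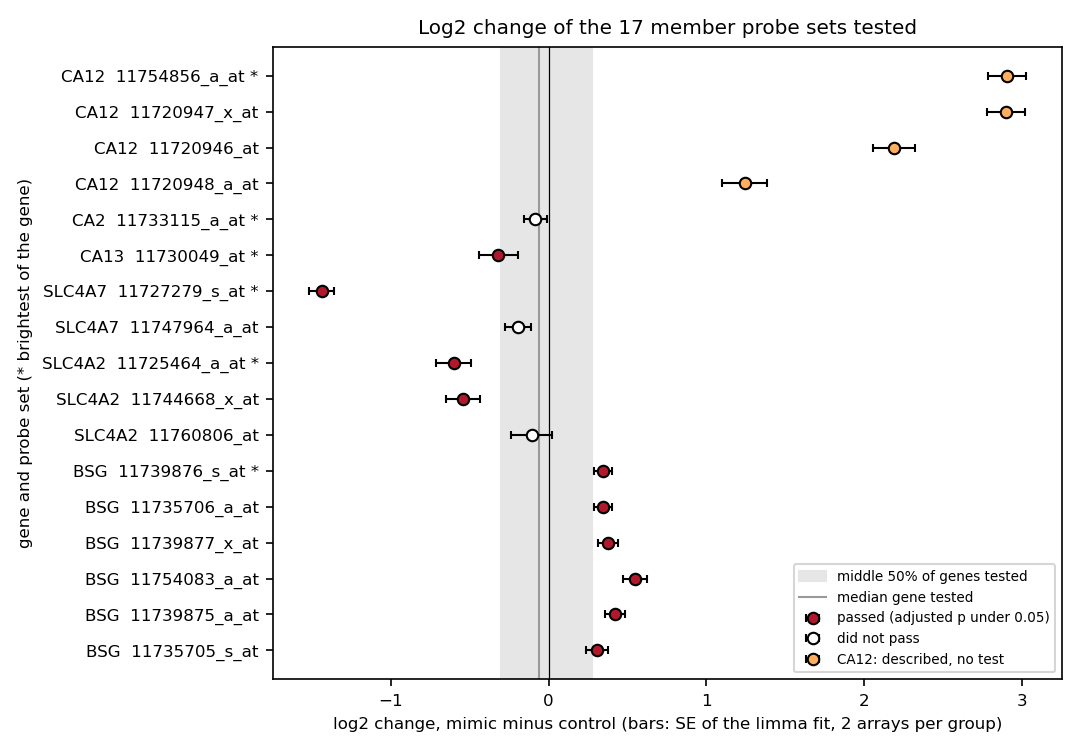
Log2 change, mimic minus control, of the 17 member probe sets tested, with bars for the SE (2 arrays per group). Red points passed, white points did not, orange points are CA12, which has no test, the grey band holds the middle 50% of genes tested and an asterisk marks the brightest probe set of a gene. All 6 BSG sets lie above 0, while the SLC4A7 and SLC4A2 sets differ among themselves.

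Over the probe sets, 17 of 20 passed the filter on low values, and the 3 left out were 2 of CA13 and 1 of CA12. Of the 13 tested that do not belong to CA12, 10 passed, 6 higher and 4 lower, where 51% of all probe sets tested passed, 27% higher and 23.9% lower. The groups did not overlap in 11 of these 13, where 76.8% of all probe sets tested did not. The 6 higher ones all belong to BSG and share that gene's transcripts, so they are not separate genes. The lower ones were 2 of SLC4A2, 1 of SLC4A7 and the CA13 set.

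The sequence before the start of the 2 genes with the largest change in each direction is given from RefSeq (GRCh38.p14), as 250 bases 5' to 3' on the gene's strand. Capitals mark ACGTG or GCGTG on either strand, the core to which hypoxia-inducible factors bind. ACGTG is also part of the E-box CACGTG.
CA12 start (chr15:63381847-63382096, minus strand): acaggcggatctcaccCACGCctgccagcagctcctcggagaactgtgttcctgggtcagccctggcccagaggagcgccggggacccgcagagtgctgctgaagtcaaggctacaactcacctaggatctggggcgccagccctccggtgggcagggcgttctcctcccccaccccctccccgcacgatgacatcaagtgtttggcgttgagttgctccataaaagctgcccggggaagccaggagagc
SLC4A7 upstream start (chr3:27484385-27484634, minus strand): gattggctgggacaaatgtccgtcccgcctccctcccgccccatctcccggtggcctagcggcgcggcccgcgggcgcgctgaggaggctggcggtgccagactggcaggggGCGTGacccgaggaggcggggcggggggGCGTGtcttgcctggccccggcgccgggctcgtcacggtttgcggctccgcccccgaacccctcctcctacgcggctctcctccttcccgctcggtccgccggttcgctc
SLC4A7 downstream start (chr3:27456779-27457028, minus strand): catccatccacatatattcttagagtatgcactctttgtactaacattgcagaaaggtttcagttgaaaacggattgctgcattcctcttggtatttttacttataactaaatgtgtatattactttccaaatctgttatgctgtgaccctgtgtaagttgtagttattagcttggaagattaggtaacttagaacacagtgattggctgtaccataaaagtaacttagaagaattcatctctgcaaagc
The CA12 window held 1 match, GCGTG on the reverse strand, far from the start. The upstream SLC4A7 window held 2 matches, both GCGTG on the gene's strand, and is 76.0% G and C, while the downstream one held 0 and is 34.8% G and C. Either core was present in 43.2% of 35116 such windows in the table, ACGTG in 18.5% and GCGTG in 32.2%. A match is a description of the letters and not evidence that a factor binds there.

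Around the listed genes, 8 further lists of acid-base, lactate and oxygen-sensing genes were read from the same fit. They were put together with earlier results of these data known. The median log2 change of all genes tested was -0.06, and the shares to set beside the counts are the 28.1% of all genes tested that passed higher and the 26.9% that passed lower. On the poly(A) spike scale the counts of higher and lower genes, in the order of the lists below, became 0 and 3, 0 and 7, 1 and 7, 1 and 6, 2 and 5, 0 and 15, 0 and 5, and 2 and 4. The counts to set beside these are the 1613 higher and 8200 lower of all 14122 genes tested on that scale. Of 11 other carbonic anhydrases and related proteins 6 were tested and 1 fell, the catalytically inactive relative CA11, at -0.70 ± 0.09, 16.7% of the list against 26.9% of all genes, with a median of -0.11. The median was -0.14 without control replicate 1. When each gene was taken as its probe sets' mean, 3 of the 4 then tested fell, with a median of -0.38. In that setting 3636 of all 13035 genes tested passed lower. CA11 read 80.6 and 75.3 with the mimic and 126 and 127 in the control. No other carbonic anhydrase tested was called in the direction of CA12. CA4 (-0.05) and CA5B (-0.04), above background on 4 arrays, read 17.8 to 23.1. CA6 was above background on 2 arrays. CA3 was at background in both groups and gives no fold. CA7 was above background only on control replicate 2, gives no fold either and did not pass. Over the 4 genes above background on 2 arrays or more, the median was -0.04.

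Of 8 other bicarbonate and anion transporters tested, 4 fell and 0 rose, 50% lower against 26.9% of all genes, with a median of -0.35. The number of calls moved when 1 array was left out, as it did over all genes. The median was -0.39 without mimic replicate 1 and -0.31 without mimic replicate 2. It was -0.24 without control replicate 1 and -0.46 without control replicate 2. The anion exchanger SLC26A6 was at -0.73 ± 0.08, the sulfate transporter SLC26A2 at -0.58 ± 0.05 and SLC4A9 at -0.44 ± 0.14, though SLC4A9 did not pass without either mimic array (-0.52 and -0.37), without control replicate 1 (-0.35) or with the hybridization spikes (-0.39). With those spikes 2 of the 8 fell, where 3128 of all 14122 genes tested passed lower. SLC4A9 read 18.5 and 16.6 with the mimic and 25.5 and 22.4 in the control, where background was 14.2 to 16.8. Of 3 other SLC26A2 probe sets 2 also passed lower, and the smallest change among the 3 was -0.01.

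The sodium-proton exchangers and their partners fell in 4 of 9 genes tested and rose in 1, 44.4% lower against 26.9% of all genes, with a median of -0.27. Leaving out control replicate 1 moved the median to -0.14, and leaving out control replicate 2 moved it to -0.40. When each gene was taken as its probe sets' mean, 2 of 8 fell, where 3636 of all 13035 genes tested did. The riser was NHERF1, a scaffold that ties transporters to the cortex, which read 443 and 421 with the mimic and 215 and 166 in the control, a change of 1.19 ± 0.11. Its other probe set rose too (1.42). Ezrin (EZR), which links NHERF1 to actin, went from 1391 and 1555 in the control to 815 and 795 with the mimic (-0.87 ± 0.06), and the exchanger SLC9B2 was at -0.87 ± 0.12, with 2 other probe sets near -0.35 that did not pass.

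Other monocarboxylate transporters and chaperones went both ways, with 3 of 10 tested higher and 2 lower and a median of -0.14. At 30% and 20% these shares lie near the 28.1% and 26.9% of all genes. EMB, which encodes embigin, a relative of basigin that also escorts monocarboxylate transporters, rose by 0.67 ± 0.10, from 115 and 142 in the control to 199 and 209 with the mimic. SLC16A14 rose by 0.70 ± 0.16, a call lost without mimic replicate 2 (0.57) and with the poly(A) spikes (0.35). SLC16A5 was at -0.91 ± 0.08, reading 159 and 145 with the mimic and 288 and 282 in the control. The only EMB probe set and the only SLC16A5 probe set above background are of the kind that can match several genes.

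Genes that make and use lactate and pyruvate changed in 9 of 10 cases, 5 higher and 4 lower, with a median of 0.06, where 28.1% and 26.9% of all genes did. Without mimic replicate 2 fewer were called, and the median was 0.05. Without cross-hybridizing probe sets the median was -0.07. PDK1, the kinase that inhibits pyruvate dehydrogenase, rose by 1.69 ± 0.18, reading 181 and 200 with the mimic against 46.6 and 75.0. Hexokinase HK2 was at 0.90 ± 0.08, though its other probe set above background was at 0.10 and did not pass. Pyruvate kinase (PKM) was at -0.63 ± 0.06, with 3 others also lower. Both lactate dehydrogenase subunits, LDHA (0.36) and LDHB (0.33), rose, each by about the 0.35 that the poly(A) spike scale takes off.

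The proton pump of acidic organelles, the V-ATPase, was lower in 11 of 18 subunits and accessory genes tested and higher in 3, 61.1% and 16.7% against 26.9% and 28.1% of all genes, with a median of -0.24. Fewer were called lower without mimic replicate 1, where the median was -0.24. One of the 11, ATP6V1C2, was at background in the mimic group and at least 1.05-fold lower there. ATP6V0C, of the membrane ring, read 293 and 315 with the mimic and 478 and 483 in the control (-0.66 ± 0.07), and ATP6V0A1 was at -0.58 ± 0.09. The only ATP6V0C probe set is of the kind that can match several genes. ATP6V0E2 rose by 0.54 ± 0.10 in its brightest probe set, while its other 2 lay at -0.04 and 0.04, and it did not pass with the mean of all (0.18) or the poly(A) spikes (0.19). With the hybridization spikes 8 of the 18 were lower, where 3128 of all 14122 genes tested passed lower.

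Among 7 proton sensors 1 passed higher and 1 lower, 14.3% each against 28.1% and 26.9% of all genes, with a median of -0.25. These counts moved when 1 array was left out. The median was -0.29 without mimic replicate 1 and -0.18 without mimic replicate 2. It was -0.27 without control replicate 1 and -0.16 without control replicate 2. The acid-gated channel ASIC1 was at 0.43 ± 0.12, a call lost without either mimic array (0.40 and 0.45) and with the poly(A) spikes (0.08). The other ASIC1 probe set above background was at 0.20 and did not pass. INSRR, a receptor kinase that senses alkaline medium, was at background in the mimic group and at least 1.28-fold lower there, a call lost without mimic replicate 1. Of 8 factors of the oxygen-sensing pathway, 4 rose and 1 fell, 50% and 12.5% against 28.1% and 26.9% of all genes, with a median of 0.19. Without cross-hybridizing probe sets the median was -0.07 and 3 of 7 were higher, where 3379 of all 12585 genes tested passed higher. On the poly(A) spike scale the median was -0.15. The oxygen-sensing hydroxylases EGLN3 (1.22 ± 0.16) and EGLN1 (0.74 ± 0.09) and the transcription factor HIF1A (0.55 ± 0.04) rose, and HIF1A did not pass with the poly(A) spikes (0.21). The EGLN1 probe sets are all of the kind that can match several genes, and the 2 others rose too (0.59 and 1.27).

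**Figure D3:**
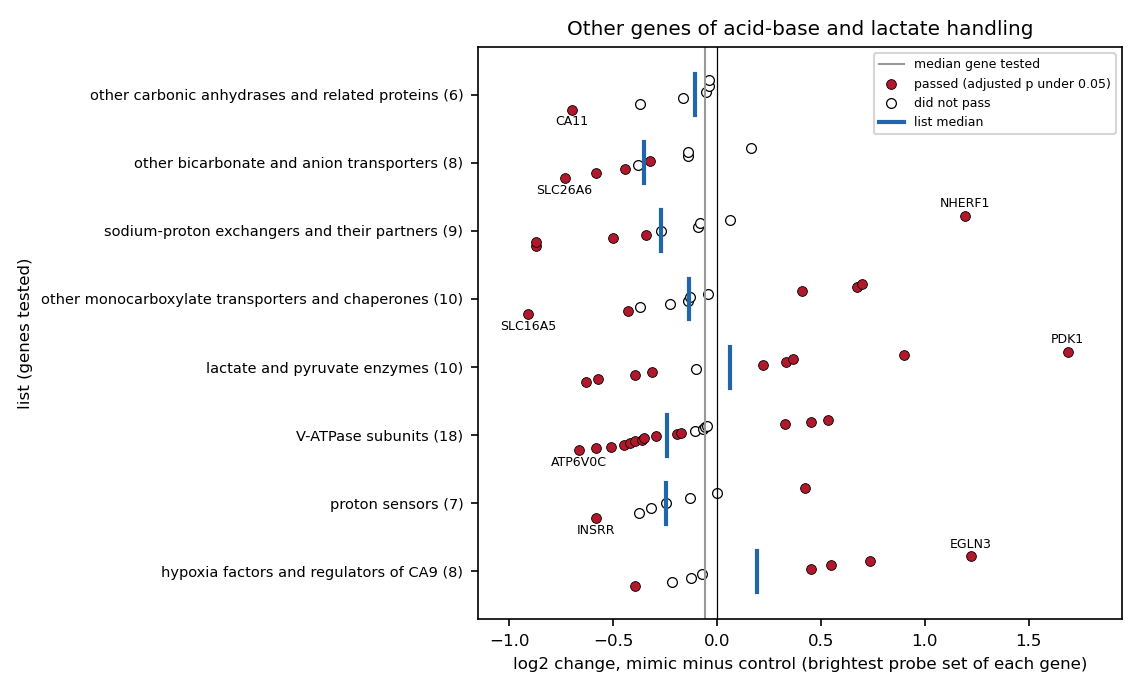
Log2 change, mimic minus control, of the genes tested in 8 lists around the listed genes, each point 1 gene by its brightest probe set. Red points passed, white points did not, blue bars are list medians and the grey line is the median gene. The anion transporter and V-ATPase lists have medians of -0.35 and -0.24, and the highest point is PDK1 at 1.69.

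**Figure D4:**
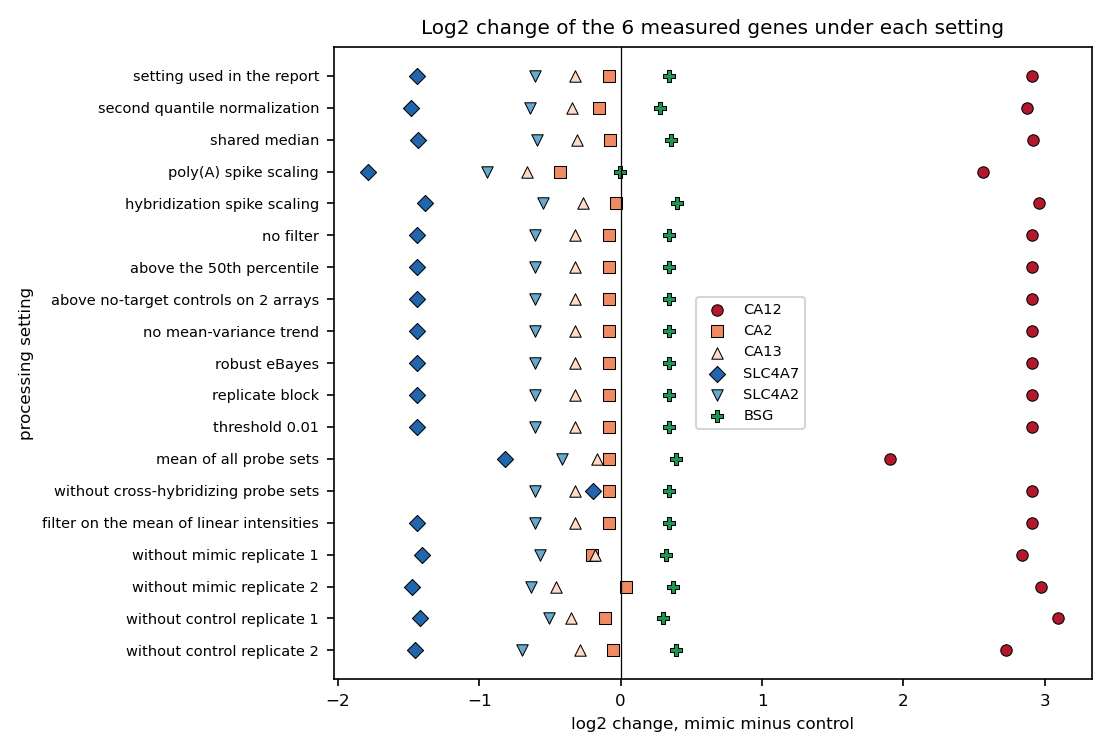
Log2 change, mimic minus control, of the 6 measured genes under the setting used here and 18 alternatives, 1 row per setting. CA12 lies between 1.90 and 3.09, SLC4A7 drops to -0.19 without cross-hybridizing probe sets, and BSG falls to -0.0011 with the poly(A) spikes.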

How the data were processed

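The 4 PrimeView arrays of SCC-9 RNA, 2 per group, were grouped by sample title. The deposited values are probe set intensities on a linear scale, made with RMA per the submitters' processing notes, with no version. RMA brings the arrays to 1 distribution, so a shift of the whole transcriptome cannot be seen. Any floor applied before deposit is not stated in the labels.

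Of 49395 probe sets, 102 are controls, and 44988 have 1 symbol, 1832 several and 2473 none in the annotation used. The log2 of these was tested with lmFit and eBayes (trend) of limma 3.58.1, run in R 4.3.3, two-sided, with Benjamini-Hochberg adjustment, once on the brightest probe set of each gene and once on all probe sets, in each case above the 30th percentile of the mean log2 value (intensity 12.0), a filter settled after a first version had been run. Background is the brightest of 20 control probe sets with no human target, and an "at least" fold is taken against it. The fit was tested on simulated data. The members and lists were chosen with earlier results of these data known. Named genes are the members, up to 3 passing genes per list, by size of change, and the 5 nearest to CA12. Marker genes, LDHA, LDHB and the CA genes that did not pass were named after their values were seen. The number of arrays limits the precision.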

Additional observations from a re-analysis of the deposited data

How the results depend on the processing

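Of the 5 genes other than CA12, 3 or 4 passed under each of the 18 alternatives, and CA13 or, without cross-hybridizing probe sets, SLC4A7 was the one lost on the deposited scale, while with the poly(A) spikes 0 were higher and 4 lower, CA2 being called and BSG at -0.0011. Against 7768 genes and 17589 probe sets, 5406 to 8128 and 11237 to 18046 passed when 1 array was left out, and 9813 and 23427 on the poly(A) spike scale. The filter was first set on the mean of linear intensities and changed to the mean of log2 values after its output was seen: as first set, 7768 of 14118 genes and the same count of 4 listed genes passed. ATP6V0E2 was at -0.035 without cross-hybridizing probe sets. Same-numbered arrays share only a number, since the labels name no shared batch and their deviations correlated at 0.05 across probe sets. With the replicate block, 8253 genes passed, and the same 4 member genes did. What causes these differences was not tested. Signals near background limit CA3, CA6, CA7 and the CA12 and CA13 probe sets not tested.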
